A study of Homo sapiens with 6 samples.

Results

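The genes of the insulin-like growth factor (IGF) binding proteins and IGF receptors were followed in HK-2 cells after overexpression of PPM1K. The family holds 7 binding protein genes (IGFBP1 to IGFBP7) and 3 receptor genes (IGF1R, IGF2R and INSR), 10 of the 31369 genes in the count table, each matched by its gene symbol. The family was selected from measured values, the differences between OE and NC in these same samples, so its differences are given as a description, with no p-value. HK-2 is an immortalized epithelial line from the proximal tubule of a human kidney, and PPM1K is a mitochondrial phosphatase that switches on the breakdown of branched-chain amino acids. RNA of 3 control samples (NC, genotype WT) and 3 samples of cells transfected with a PPM1K plasmid (OE, genotype PPM1K overexpress) was sequenced. All 6 samples carry the time label Day 10 and the treatment label Chronic kidney disease, grew in DMEM with fetal bovine serum, and have HK-2 as their cell type, although the cell line label carries another HK number in 5 of them. What the control cells were transfected with and which promoter drove PPM1K are not given in the sources used here. The sample titles read shControl and shPPM1K, names of a short hairpin experiment, whereas the genotype labels name overexpression.

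IGF1 and IGF2 are growth factors that act through IGF1R, a tyrosine kinase receptor close in build to the insulin receptor INSR. IGF2R, also the cation-independent mannose 6-phosphate receptor, carries IGF2 and lysosomal enzymes to lysosomes and does not signal as a kinase. The IGFBPs are secreted proteins that bind IGFs and hold them away from IGF1R, and proteases such as PAPPA release the IGFs again. IGFBP7 binds IGFs only weakly and is known in kidney medicine as a urinary marker of tubule cell stress.

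PPM1K itself checked the labels. It had 37, 19 and 53 counts in NC and 3294, 3531 and 2919 in OE, or 1.03 ± 0.468 against 86.3 ± 5.14 CPM (counts scaled to library size, mean ± SD, n = 3), so the data go with the genotype labels. Libraries held 34635770 to 36116963 counts in NC and 36033404 to 39850802 in OE. NC sample 2 stood apart with 26478 genes detected, against 22094 to 22913 in the other libraries, and values without it are given where it ended a call or moved a fold change by over 1.5 times, and for IGFBP3. By the authors' read statistics, NC sample 2 also had the largest shares of intronic, intergenic and antisense reads and the smallest share of spliced reads. Whether these reads raised its number of genes was not tested. Of 17 epithelial and proximal tubule markers in the table, 10 had a mean of at least 1 CPM, and their summed level was 3966 to 4337 CPM in NC and 3219 to 3496 in OE. The keratin genes KRT8 and KRT18 and the renal factor PAX8 were high, while the apical transport genes LRP2, CUBN and AQP1 of the mature tubule were at or near 0 CPM. Summed fibroblast and mural markers (8 genes, 2 of them over 1 CPM, chiefly RGS5 and COL1A1) were at 32.8 to 37.2 CPM in NC and 15.7 to 17.2 in OE, with COL3A1 and PDGFRA at or near 0. Summed endothelial markers (6 genes, 3 over 1 CPM) were at 5.12 to 6.56 CPM in NC and 7.15 to 8.20 in OE, and leukocyte markers (5 genes, 0 over 1 CPM) at 0.489 to 0.723 and 0.220 to 0.352, with PTPRC and CD3E at or near 0. These marker sums moved with the groups, and their part in the values below was not tested.

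The promoters of IGFBP3, IGFBP4 and IGF2R are shown because these genes had the largest difference to lower and the largest differences to higher levels among the binding proteins and receptors. Each line gives the 250 bases before the RefSeq start site (GRCh38.p14), 5′ to 3′ on the gene's strand, with matches to the searched motifs in capitals. The windows are chr7:45921273-45921522 (minus strand) for IGFBP3, chr17:40443200-40443449 (plus strand) for IGFBP4 and chr6:159968832-159969081 (plus strand) for IGF2R. The IGFBP3 window lies inside the widest annotated span of the gene, where it overlaps no exon.
IGFBP3: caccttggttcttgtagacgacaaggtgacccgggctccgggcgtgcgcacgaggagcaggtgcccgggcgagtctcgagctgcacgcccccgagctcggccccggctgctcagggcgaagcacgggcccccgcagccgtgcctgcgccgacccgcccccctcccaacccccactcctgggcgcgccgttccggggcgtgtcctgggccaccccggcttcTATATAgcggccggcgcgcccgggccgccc
IGFBP4: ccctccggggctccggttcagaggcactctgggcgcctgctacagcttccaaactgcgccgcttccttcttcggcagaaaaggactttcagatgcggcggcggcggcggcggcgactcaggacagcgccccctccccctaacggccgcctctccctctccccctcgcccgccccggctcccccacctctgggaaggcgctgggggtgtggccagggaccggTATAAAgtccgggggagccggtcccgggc
IGF2R: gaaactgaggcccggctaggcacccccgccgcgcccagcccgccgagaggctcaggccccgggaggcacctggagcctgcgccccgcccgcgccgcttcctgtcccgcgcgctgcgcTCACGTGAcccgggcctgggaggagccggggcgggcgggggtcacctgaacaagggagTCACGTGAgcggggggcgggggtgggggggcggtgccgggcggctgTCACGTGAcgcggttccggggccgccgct

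The motifs were searched on both strands of 35116 promoter windows, in which 8 of the 10 family members were found. IGFBP1 and IGFBP7 had no window, so their promoters were not searched. The C/EBP-ATF response element TGATGNAA was in 3.14% of all windows and in 0 of the 8 members searched. The insulin response core CAAAACA was in 4.3% of windows and in 0 of these 8 members. The forkhead core GTAAACA was in 2.98% of windows and in that of IGFBP6, beginning 186 bases before the start. Most of this window (chr12:53097417-53097666, plus strand), the match included, lies inside the widest annotated span of IGFBP6, which begins at 53097436. The other motifs were added after the member windows had been read. IGFBP3 held TATATA (3.73% of windows) at 30 bases before the start, and IGFBP4 held TATAAA (10.7% of windows) at 29 bases before it. IGF2R held TCACGTGA 3 times, at 133, 75 and 29 bases before the start. TCACGTGA contains the E-box CACGTG, and such flanked E-boxes are known as binding sequences of TFEB and TFE3, regulators of lysosomal genes. TCACGTGA was in 0.854% of all windows and occurred at least 3 times in 4 of them (0.0114%), and CACGTG was in 6.34%. The 4 windows are those of BAX, DVL2, RAD9A and IGF2R itself. As TCACGTGA was chosen after the IGF2R window had been read, its rarity is no test. All 3 printed windows were richer in G and C (76.0% for IGFBP3, 71.6% for IGFBP4 and 79.2% for IGF2R) than the median window (58.0%). A match is a run of letters and no evidence that a factor binds there.

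Most of the family's RNA came from few genes. IGFBP7 was the most abundant member per length, followed by IGFBP6, IGFBP3, IGF2R, IGFBP4, IGF1R and INSR, while IGFBP1, IGFBP2 and IGFBP5 were barely counted. In NC the deposited FPKM (fragments scaled by gene length and library size, a level per length) was 81.5 ± 4.23 for IGFBP7, 33.6 ± 4.03 for IGFBP6, 25.4 ± 1.05 for IGFBP3 and 10.6 ± 0.426 for IGF2R. Lower down, IGFBP4 had 3.03 ± 0.216 FPKM, IGF1R 2.27 ± 0.133 and INSR 1.15 ± 0.0586 (SD, n = 3 each). The ranges of neighbours in this order did not overlap among these 7 genes. In OE the order changed at 1 place among them. IGF2R, at 14.0 ± 0.501 FPKM, stood above IGFBP3, at 8.32 ± 0.369, and again no neighbouring ranges overlapped. IGFBP1 and IGFBP2 overlapped each other in both groups, between 0 and 0.09 FPKM, and IGFBP5 has no row in the FPKM table.

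**Figure D1:**
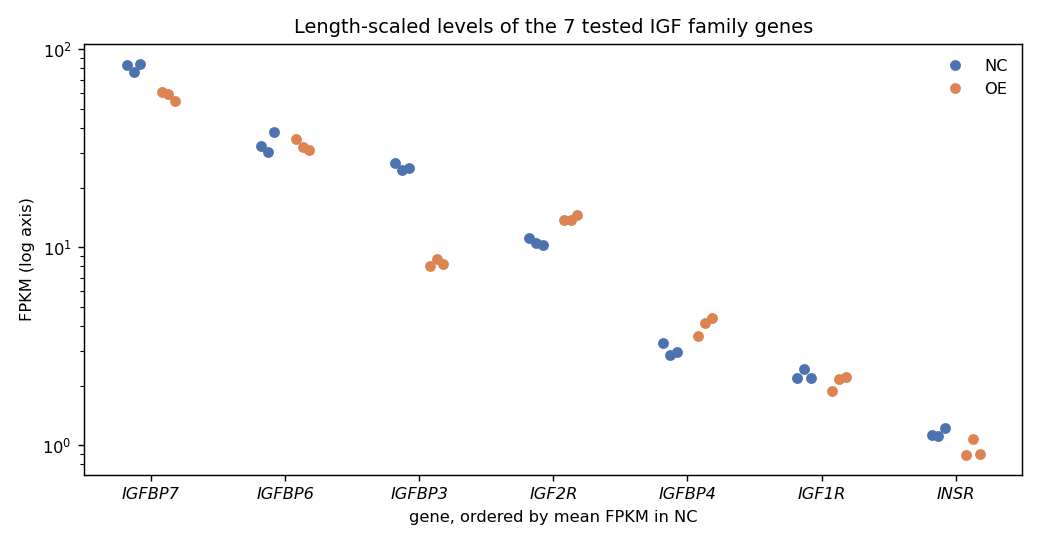
Deposited FPKM (log axis) of the 7 tested family members in NC (blue) and OE (orange), with 1 point per sample. IGFBP7 is highest in both groups, and IGF2R lies below IGFBP3 in NC and above it in OE.

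IGFBP3 was the family member that differed most between the groups, more than 3-fold lower in OE. IGFBP7 was lower as well, IGFBP4 and IGF2R were higher, and INSR was slightly lower. IGFBP6 lay at the same level within its spread. In bulk RNA, fewer cells expressing a gene and less of its RNA per cell cannot be told apart. Of the 10 members, 7 passed the filter on low counts, and of those 7 only IGFBP3 met both the adjusted p of 0.05 and the fold change of 2, in the lower direction (0 higher). Over all 15878 tested genes, 5.51% were called, 1.73% higher and 3.79% lower. Without the fold threshold, 5 members passed the adjusted p of 0.05, 2 higher (IGFBP4 and IGF2R) and 3 lower (IGFBP3, IGFBP7 and INSR), against 48.6% of all tested genes, 24.9% higher and 23.7% lower. The CPM ranges of NC and OE did not overlap in 6 of the 7 tested members and in 55.3% of all tested genes. The median log2 fold change was -0.15 over the 7 tested members and -0.0032 over all tested genes. Because the family was chosen on this contrast, nothing is read from these counts.

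**Figure D2:**
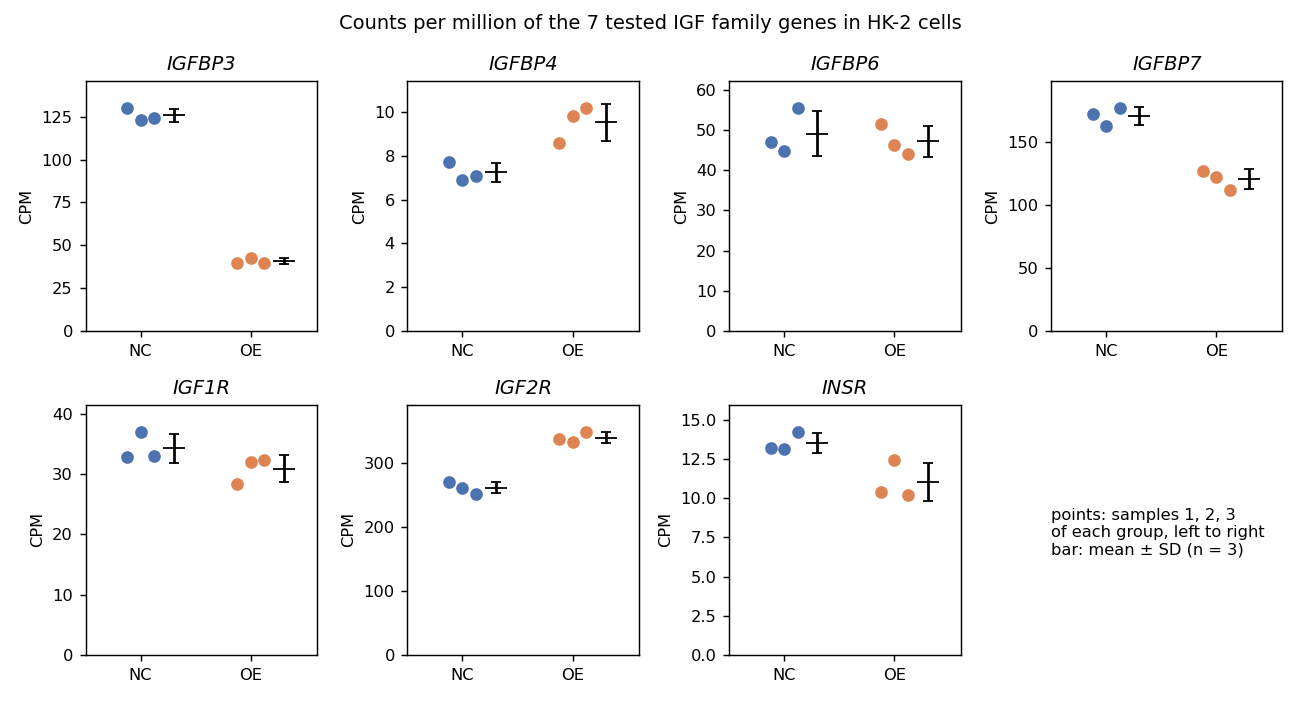
CPM of the 7 tested family members in the 3 NC (blue) and 3 OE (orange) samples, with the mean and SD beside the points (linear axes from 0). IGFBP3 shows the widest gap, IGFBP6 overlaps between the groups, and the gap in IGF1R is narrow.

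IGFBP3, the main IGF carrier in plasma, lies on chromosome 7 from 45912245 to 45921874 on the minus strand (GRCh38) and overlaps no other annotated gene. It had 130, 123 and 124 CPM in the NC samples and 39.9, 42.7 and 39.5 CPM in OE. Every OE sample lay far below every NC sample, and the spread inside each group was small. The mean was 126 ± 3.79 CPM in NC and 40.7 ± 1.71 in OE, a level 3.09-fold lower (log2 fold change -1.63, SE 0.054). Without NC sample 2 the log2 fold change was -1.64. Its neighbour IGFBP1 lies 18.6 kb away, with the ends of both genes facing each other. IGFBP1, a binding protein made chiefly by liver, had 0, 1 and 6 counts in NC and 2, 2 and 2 in OE.

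IGFBP7 lies on chromosome 4 from 57030773 to 57110385 on the minus strand. It had 172, 163 and 177 CPM in NC and 127, 122 and 112 in OE. The groups were apart, and the lowest NC sample was well above the highest OE sample. The means were 171 ± 7.15 and 120 ± 7.77 CPM (log2 fold change -0.50, SE 0.055), a loss of 29.4% of the level. POLR2B, UBE2CP3 and IGFBP7-AS1 overlap the gene on the other strand, and the sources used here do not say if strand was used in counting. The ratio of IGFBP7 to IGFBP3 FPKM was 3.22 ± 0.143 in NC and 7.01 ± 0.464 in OE, with no overlap between the groups.

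IGFBP4, a binding protein that PAPPA cleaves, lies on chromosome 17 from 40443450 to 40457725 on the plus strand and overlaps no other gene. It had 7.73, 6.90 and 7.09 CPM in NC and 8.58, 9.81 and 10.2 in OE. All OE samples were above all NC samples, by a margin of less than the range inside OE. The means were 7.24 ± 0.433 and 9.53 ± 0.837 CPM (log2 fold change 0.40, SE 0.10). IGFBP6, which prefers IGF2 over IGF1, lies on chromosome 12 from 53097436 to 53102345 on the plus strand. It had 47.0, 44.7 and 55.5 CPM in NC and 51.5, 46.3 and 43.9 in OE. The groups overlapped over most of their ranges, and the means were 49.1 ± 5.66 and 47.2 ± 3.85 CPM (log2 fold change -0.056, SE 0.075). Its direction turned when NC sample 3 was left out, with a log2 fold change of 0.045, and the value was -0.117 without NC sample 2 or OE sample 1 and -0.011 without OE sample 3.

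The other binding proteins were near the counting limit. A library's floor of 3 counts equals 0.0753 to 0.0866 CPM. IGFBP2, an abundant binding protein of plasma, had 1, 9 and 3 counts in NC and 3, 9 and 7 in OE. Summed over the group, that is 13 counts (exact Poisson 95% interval 6.92 to 22.2) against 19 (11.4 to 29.7). IGFBP1 summed to 7 counts (2.81 to 14.4) in NC and 6 (2.20 to 13.1) in OE, and IGFBP5 to 1 count (0.0253 to 5.57) and 0 (0 to 3.69). No difference was detectable in these genes at this depth, and the intervals cover counting error only. IGFBP2 and IGFBP5 are neighbours on chromosome 2, 7668 bases apart, and like the neighbours IGFBP1 and IGFBP3 they point towards each other.

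The make-up of the binding protein RNA differed between the groups in IGFBP3, IGFBP6 and IGFBP4, while for IGFBP7 it depended on the unit. IGFBP3 made up 17.7% ± 0.942 of the summed IGFBP FPKM in NC and 8.06% ± 0.501 in OE (SD, n = 3), and IGFBP6 23.4% ± 1.62 and 31.6% ± 0.978. IGFBP7 held 56.8% ± 0.584 in NC and 56.3% ± 0.492 in OE, with overlapping ranges. IGFBP4 stood at 2.11% ± 0.139 and 3.92% ± 0.557. The summed FPKM of the binding proteins was 146, 134 and 151 in the NC samples and 108, 104 and 98.5 in OE, so the larger share of IGFBP6 went with a smaller total and not with a higher IGFBP6 level. Shares of FPKM depend on the gene lengths used. By shares of counts, IGFBP3 made up 35.6% in NC and 18.7% in OE, IGFBP6 13.9% and 21.6%, and IGFBP4 2.05% and 4.39%. IGFBP7 made up 48.4% and 55.2%, so its like shares in both groups held for FPKM and not for counts.

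**Figure D3:**
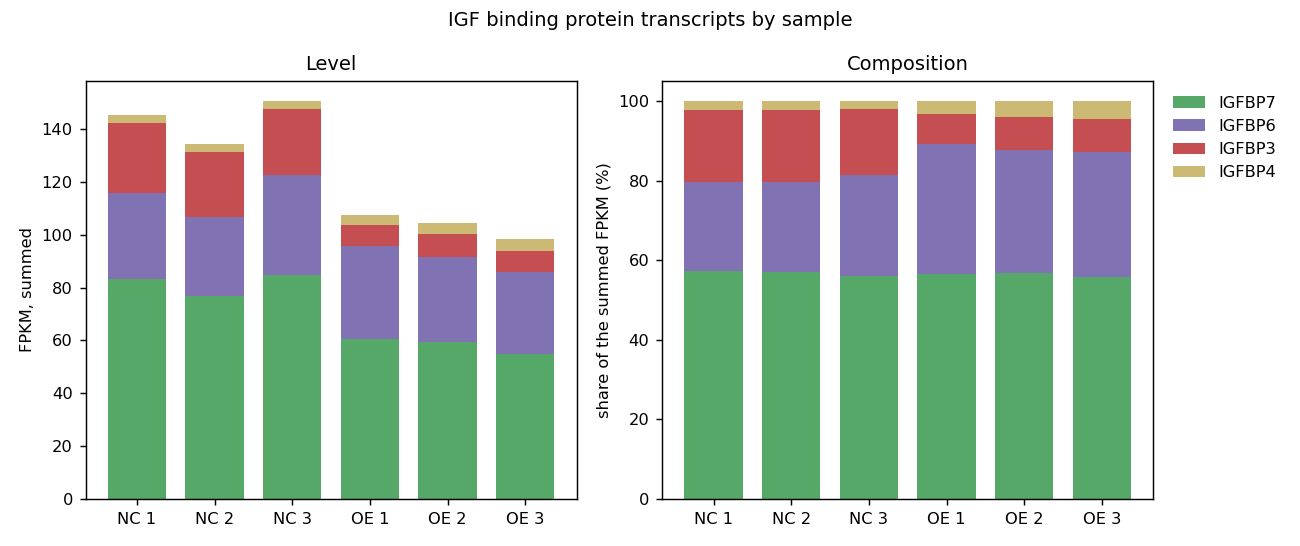
Stacked FPKM of IGFBP7, IGFBP6, IGFBP3 and IGFBP4 in each of the 6 samples (left) and their shares of the summed FPKM in percent (right). IGFBP7 holds 56.8% in NC and 56.3% in OE on average, while IGFBP3 goes from 17.7% to 8.06% and IGFBP6 from 23.4% to 31.6%.

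Among the receptors, IGF2R was higher in OE, IGF1R differed little and INSR was slightly lower. IGF2R lies on chromosome 6 from 159969082 to 160113507 on the plus strand and had 270, 261 and 252 CPM in NC and 337, 333 and 349 in OE. All OE samples were above all NC samples, with means of 261 ± 8.71 and 340 ± 8.35 CPM (log2 fold change 0.38, SE 0.049). AIRN, on the other strand, and CHP1P2 overlap it. IGF1R, the signalling receptor for both IGFs, lies on chromosome 15 from 98648539 to 98964530 on the plus strand and had 32.8, 37.0 and 33.0 CPM in NC and 28.3, 32.0 and 32.4 in OE. The groups touched, with the lowest NC sample just above the highest OE sample in CPM and ranges that overlapped in FPKM. The means were 34.3 ± 2.39 and 30.9 ± 2.26 CPM (log2 fold change -0.15, SE 0.073), and the log2 fold change was -0.089 without NC sample 2 and -0.085 without OE sample 1. IGF1R did pass the adjusted p without OE sample 3 and with upper quartile scaling, at -0.19 in both. INSR lies on chromosome 19 from 7112255 to 7294414 on the minus strand and had 13.2, 13.2 and 14.3 CPM in NC and 10.4, 12.5 and 10.2 in OE. Its groups did not overlap, although OE sample 2 came close to NC, and it no longer passed the adjusted p without NC sample 3 or without OE sample 1. The means were 13.5 ± 0.624 and 11.0 ± 1.24 CPM (log2 fold change -0.29, SE 0.093). The ratio of IGF2R to IGF1R FPKM was 4.70 ± 0.367 in NC and 6.79 ± 0.480 in OE, with no overlap. The ratio of IGF1R to INSR was 1.97 ± 0.195 in NC and 2.18 ± 0.237 in OE, with overlapping ranges.

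The genes whose log2 CPM followed IGFBP3 most closely over the 6 samples were CASTOR3 (Pearson r 0.9995), ZBED2 (0.9994) and BRD8 (0.9994), among the 11771 tested genes that averaged 100 counts or more. The groups set most of this likeness, since any gene that separates NC from OE in the direction of IGFBP3 has a high r. Accordingly, 302 genes had an r over 0.99 and 1335 over 0.95.

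Around the family, a list of 54 IGF and insulin pathway genes was described by role, of which 53 were in the table and 45 passed the filter on low counts. Of these 45, 3 were called past both thresholds, PAPPA2 and GRB10 higher and MMP7 lower. Over all tested genes 5.51% were called. By the adjusted p of 0.05 alone, 8 were higher, 17 lower and 20 did not pass, beside 24.9% higher and 23.7% lower over all tested genes. The median log2 fold change of the 45 genes was -0.019. INS was not in the table.

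**Figure D4:**
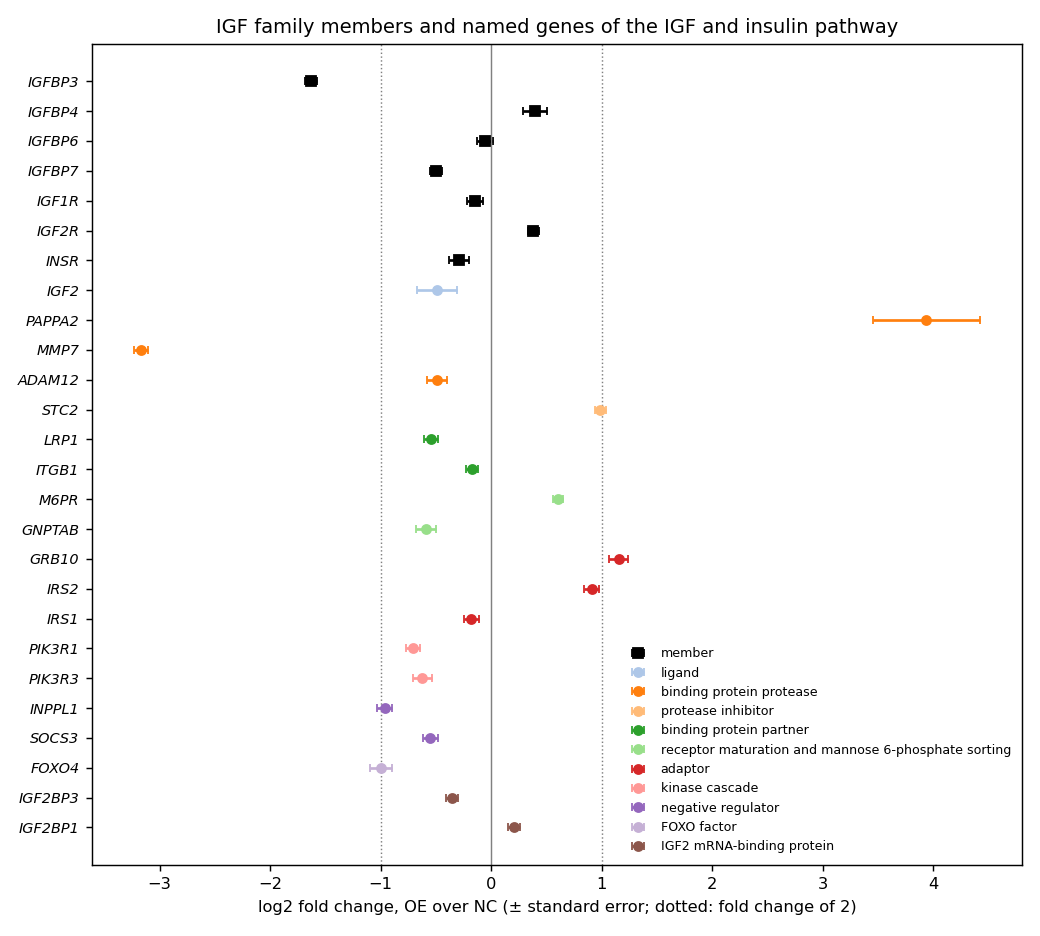
Log2 fold change (OE over NC) with its SE for the tested family members (squares) and the named pathway genes (circles, coloured by role), with dotted lines at a fold change of 2. MMP7 lies furthest to the lower side at -3.16 and PAPPA2 furthest to the higher side at 3.94, the latter from few NC counts.

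Of the ligands, only IGF2 was tested. IGF2 fell from 2.55 ± 0.300 to 1.81 ± 0.184 CPM (log2 fold change -0.49, SE 0.18, adjusted p = 0.0304), a low level. INS-IGF2 and IGF2-AS overlap it, so its counts are uncertain. It no longer passed by DESeq2 (adjusted p = 0.109) or without NC sample 1, NC sample 2, OE sample 1 or OE sample 2 (adjusted p from 0.0701 to 0.121). IGF1 stayed below the filter at 0.141 CPM in NC and 0.126 in OE, as did IGFALS, the partner of IGFBP3 in the plasma complex, and INSRR and IGFBPL1.

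The proteases that cleave IGFBPs did not move together. MMP7, a matrix metalloproteinase of injured tubules that also cleaves binding proteins, fell from 164 ± 8.84 to 18.2 ± 1.27 CPM (log2 fold change -3.16, SE 0.064, adjusted p = 9.05e-19). ADAM12 fell by 0.49 on the log2 scale (SE 0.090, adjusted p = 0.00012). PAPPA2, a protease for IGFBP3 and IGFBP5, had 0, 7 and 2 counts in NC and 49, 49 and 54 in OE. Its groups were apart (log2 fold change 3.94, SE 0.49, adjusted p = 9.81e-07). With so few NC counts the size was uncertain, and the log2 fold change was 5.42 without NC sample 2. PAPPA2 fell below the filter that asked at least 10 counts in every sample and below that of limma on FPKM. By limma on log2(FPKM + 1) with no filter its log2 fold change was 0.15, and it was not called. PAPPA, the related protease for IGFBP4, was at 16.8 ± 0.304 CPM in NC and 17.0 ± 2.35 in OE and did not pass, and neither did HTRA1. STC2, an inhibitor of both PAPPA proteases, rose from 238 ± 3.17 to 473 ± 22.0 CPM (log2 fold change 0.99, SE 0.051, adjusted p = 1.56e-12), just short of the fold threshold. The ratio of STC2 to PAPPA FPKM was 32.5 ± 1.09 in NC and 64.5 ± 10.4 in OE.

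Of 5 partners of the binding proteins at the cell surface and in the nucleus, 3 were lower and 0 higher by the adjusted p. Over all tested genes, 23.7% were lower and 24.9% higher. LRP1, an endocytic receptor that also binds IGFBP3, fell by 0.54 on the log2 scale (SE 0.063, adjusted p = 3.76e-07). ITGB1, an integrin subunit, fell by 0.17 (SE 0.053, adjusted p = 0.0104), and it no longer passed without NC sample 1, OE sample 1 or OE sample 2 (adjusted p from 0.0505 to 0.0836). The third, TMEM219, is a receptor for IGFBP3, and it went from 5.09 ± 0.171 to 4.02 ± 0.383 CPM. It no longer passed by DESeq2, with no filter on low counts, or without any 1 NC sample or OE sample 3, and was added to the named genes after its values were seen.

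The mannose 6-phosphate genes went both ways. M6PR, the smaller sorting receptor beside IGF2R, rose from 126 ± 2.82 to 191 ± 1.45 CPM (log2 fold change 0.60, SE 0.048, adjusted p = 1.58e-09). GNPTAB, which makes the mannose 6-phosphate tag, fell by 0.59 on the log2 scale (SE 0.087, adjusted p = 8.8e-06). Of 45 pathway genes with a promoter window, GNPTG and IGF2BP3 held TCACGTGA, and M6PR and IRS4 held CACGTG without these flanks.

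Of 8 tested adaptors, 3 passed, where 48.6% of all tested genes passed. IRS2, an adaptor of INSR and IGF1R, rose from 39.1 ± 1.77 to 73.4 ± 8.13 CPM (log2 fold change 0.91, SE 0.069, adjusted p = 8.86e-10). GRB10, an adaptor that restrains both receptors, rose from 9.05 ± 0.355 to 20.1 ± 0.934 CPM (log2 fold change 1.15, SE 0.083, adjusted p = 3.65e-10). Its call was lost with glmTreat against a fold change of 2 (adjusted p = 0.547) and with limma on log2(FPKM + 1), where the log2 fold change was 0.65. IRS1 fell by 0.18 on the log2 scale (SE 0.069, adjusted p = 0.0354), with groups that overlapped. It no longer passed by DESeq2 (adjusted p = 0.0729) or without any 1 sample other than OE sample 3 (adjusted p from 0.0526 to 0.262), and the log2 fold change was -0.11 without OE sample 1.

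In the kinase cascade, 6 of 8 tested genes passed, 2 higher and 4 lower, where 48.6% of all tested genes passed. Of these, AKT1 no longer passed without NC sample 1, NC sample 3 or OE sample 1, nor PDPK1 without NC sample 2, NC sample 3 or OE sample 3, both named after their values were seen. Both tested regulatory subunits of phosphoinositide 3-kinase were among the lower genes, with PIK3R1 at -0.71 (SE 0.062, adjusted p = 7.32e-09) and PIK3R3 at -0.62 (SE 0.089, adjusted p = 6.18e-06) on the log2 scale. Of 6 negative regulators, 3 were lower and 0 higher, where 23.7% of all tested genes were lower and 24.9% higher. INPPL1, a lipid phosphatase that lowers insulin signalling, fell from 39.7 ± 1.79 to 20.3 ± 0.192 CPM (log2 fold change -0.96, SE 0.068, adjusted p = 2.75e-10), and SOCS3, an inhibitor of cytokine and insulin receptors, fell by 0.55 (SE 0.067, adjusted p = 8.59e-07). FOXO4, a transcription factor held out of the nucleus by insulin signalling, fell from 13.2 ± 0.237 to 6.62 ± 0.699 CPM (log2 fold change -0.999, SE 0.099, adjusted p = 4.73e-08). Its fold change lay close to the threshold, and it was called in 8 of the 16 alternative fits. FOXO3 did not pass. FOXO1 lay below the filter and went the other way, with 0, 3 and 2 counts in NC and 7, 9 and 14 in OE. It was called by DESeq2 and with no filter on low counts, and was named after its values were seen. Of the proteins that bind IGF2 mRNA, IGF2BP3 fell by 0.35 (SE 0.057, adjusted p = 3.07e-05) and IGF2BP1 rose by 0.21 (SE 0.055, adjusted p = 0.0036) on the log2 scale, while IGF2BP2 did not pass.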

How the data were processed

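RNA from 3 NC and 3 OE samples of HK-2 cells was sequenced as paired stranded libraries. The authors trimmed reads with FASTX-Toolkit, used HISAT2 to align them to GRCh38 and took reads mapped uniquely for the gene counts. The submitters' processing notes also list mm10. The deposited read counts and the deposited FPKM values were used as they stood. Whether counting used strand is not given in the sources used here.

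Counts were fitted with edgeR 4.0.16 in R 4.3.3 (TMM scaling, filterByExpr, quasi-likelihood test, Benjamini-Hochberg over 15878 genes, all 6 samples, no covariate). Genes were called at an adjusted p of 0.05 and a fold change over 2 or under 0.5. The SE of a log2 fold change was derived from the test, as its absolute value divided by the square root of the quasi-likelihood F statistic. CPM used TMM library sizes. Library totals of 34635770 to 39850802 counts allow 3 counts, or at most 0.0866 CPM, as the floor. The procedure was tested on simulated data. DESeq2 1.42.0, limma 3.58.1 on log2(FPKM + 1) and log2(FPKM + 0.1), other scalings, other filters, glmTreat, a replicate block and leaving out each sample were the alternatives. Positions come from GENCODE 44, which held 99.8% of the gene identifiers, and promoters from RefSeq GRCh38.p14.

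The members, the pathway list, the motifs and the tests were chosen with earlier results of these data known. Named genes were all members, PPM1K, the called pathway genes, at most 2 further genes of each role with the smallest adjusted p under 0.05, and the 3 genes most like the member with the largest change. Genes given only by a level or as not passed lie outside this rule. The labels do not say that replicates were separate cultures, so p-values measure the spread between these samples, which may be technical. Protein sequences were not used here.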

Additional observations from a re-analysis of the deposited data

How the results depend on the processing

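IGFBP3 was the 1 family member called under all 16 alternatives, with log2 fold changes from -1.66 to -1.499. The other tested members kept their direction under all 16, except IGFBP6, which lay between -0.12 and 0.045 when 1 sample was left out and was above 0 only without NC replicate 3. Because the family was chosen on this contrast in these same samples, these refits show only dependence on processing and give its differences no support. Over all tested genes, 875 calls became 186 with glmTreat, 125 with limma on log2(FPKM + 1), 123 with the same and no filter, and 272 with limma on log2(FPKM + 0.1). The filter on low counts mattered too, with 1076 calls without it and 597 with at least 10 counts in every sample. DESeq2 called 796. The cause of the lower counts with limma was not tested, and glmTreat by construction tests against a fold change of 2. Leaving out 1 sample gave 862 to 955. Of the pathway genes, 3 calls became 5 with upper quartile scaling and 1 with limma on log2(FPKM + 1), with or without the filter, 2 with glmTreat, and 3 to 5 when 1 sample was left out, with 5 without OE replicate 2, where FOXO4 and STC2 were added. By DESeq2 and with no filter on low counts, 4 pathway genes were called, FOXO1 being added. The share of IGFBP3 was 35.6% in NC and 18.7% in OE by counts in place of FPKM. The median of all genes moved to -0.13 with DESeq2 and with no filter, and lay between -0.041 and 0.052 otherwise.

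Deviations of same-numbered samples correlated at -0.0032, -0.066 and -0.054, which shows no sign of pairing by number. With 3 samples in each group, these values cannot exclude that same-numbered samples were handled together. With a replicate block, 877 genes were called, 856 of them shared with the fit without it, and 4 pathway genes, FOXO4 being added. The family had 1 call there as well. ITGB1 (adjusted p = 0.0502), IRS1 (adjusted p = 0.0537), AKT1 and TMEM219 no longer passed under it, so 21 pathway genes passed in place of 25. Of the 5 members past the adjusted p, INSR was lost with limma on log2(FPKM + 1) and 4 were lost with glmTreat, while IGF1R was gained with upper quartile scaling and without OE replicate 3. Depth limits IGFBP1, IGFBP2, IGFBP5 and PAPPA2, which had 0 to 9 counts in each NC library.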
